A study of Homo sapiens with 6 samples.

Results

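SLC52A1, SLC52A2 and SLC52A3 encode the carriers that bring riboflavin into the cell, and RFK, FLAD1 and SLC25A32 encode the proteins that make the flavin cofactors and move them into mitochondria. These 6 genes, of 16798 coding genes measured, were described in COV434 cells after 4HC treatment. The study calls COV434 a human granulosa cell (GC) line. The genes were picked by their symbols, and the set was built around SLC52A1, which had been chosen on its large rise in these same samples. Its difference between the groups is therefore a description and carries no test, whereas the 4 other members with enough counts were tested. Total RNA was sequenced from 3 control samples, whose genotype label is WT, and from 3 samples labelled CTX-induced, which had received 15 µM 4HC, the active metabolite of cyclophosphamide (CTX), for 24 h. All 6 samples are of 1 immortalized line, and the labels name no vehicle for the controls. They also do not say whether replicates were grown separately, so the p-values measure the spread between these samples, which may be technical.

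Riboflavin, or vitamin B2, is not made by human cells and enters them through the SLC52 carriers of the plasma membrane. RFK phosphorylates riboflavin to flavin mononucleotide (FMN), FLAD1 joins FMN to AMP to give flavin adenine dinucleotide (FAD), and SLC25A32 is a carrier of the inner mitochondrial membrane for FAD and folate. FMN and FAD are the electron-carrying groups of flavoproteins, among them the acyl-CoA dehydrogenases of fatty acid oxidation, a subunit of succinate dehydrogenase and many reductases. SLC52A1 is known mainly from placenta and intestine, SLC52A2 from a wide range of tissues, and SLC52A3 from intestine and testis.

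SLC52A1 and SLC52A2 are close paralogs, and their sequences are compared first, because reads of one might be taken for the other. Over aligned coding bases in the GENCODE 29 annotation of GRCh38, the pair shared 1169 of 1338 bases (87.4%) and 386 of 445 residues (86.7%). SLC52A3 was more distant, with 59.7% of bases and 45.8% of residues shared with SLC52A1. The predicted proteins have 448 residues for SLC52A1, 445 for SLC52A2 and 469 for SLC52A3. Both stretches below are from exonic coding sequence of SLC52A1, 5′ to 3′ on the minus strand, and capitals mark the bases that differ from SLC52A2 or are missing in it. The first, chr17:5033736-5033835, covers coding bases 654 to 753 and holds 33 differing bases, the most of any 100-base window. The second, chr17:5033837-5033936, covers coding bases 553 to 652 and holds 7, which was the fewest in a window that no intron interrupts.
SLC52A1 most different: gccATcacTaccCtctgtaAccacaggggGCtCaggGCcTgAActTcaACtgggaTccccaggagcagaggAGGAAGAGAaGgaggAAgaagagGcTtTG
SLC52A1 most alike: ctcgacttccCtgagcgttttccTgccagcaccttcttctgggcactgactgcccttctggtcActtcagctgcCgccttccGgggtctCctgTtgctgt

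Windows of 100 bases differed between the paralogs by 6 to 33 bases, with a median of 12. Of the 2326 windows of 50 bases in the SLC52A1 transcript NM_017986, 2315 (99.5%) matched no other gene exactly, and none of the remaining 11 matched SLC52A2. All 2276 windows of 100 bases were unique to SLC52A1. The search took exact matches only, so it does not show how reads with mismatches would be divided between the paralogs. The read length is not given in the sources used here.

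The authors deposited an expected count per gene and sample, an estimate of the reads from a gene that divides ambiguous reads among their possible sources. Totals ran from 16133786 to 16702316 per sample. Counts are given below as CPM, the count scaled to a fixed library size, after TMM scaling, whose factors lay between 0.9928 and 1.012. The biological coefficient of variation between samples of a group was 0.0277. Differences were tested with edgeR's quasi-likelihood test over the 12368 genes that passed a filter on low counts, and adjusted p-values are by Benjamini-Hochberg over those genes. With an adjusted p below 0.05 as the threshold, 36.4% of all genes tested were called, 19.2% as higher and 17.1% as lower in 4HC. The study set its limits, a 2-fold difference and an unadjusted p under 0.05, on DESeq2 values. Applied here to edgeR's values, the same limits called 1.15% of genes tested.

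The labelled cell type was compared with its markers. Of 16 granulosa markers, 14 were in the table and 10 stayed under 1 CPM in every sample, including FOXL2, the FSH receptor FSHR, the aromatase CYP19A1, NR5A1 and STAR. ESR2, at 19.8 CPM in control, HSD17B1, at 14.2 CPM, and AMH, at 5.19 CPM, were present. Most of the listed markers thus did not bear out the name granulosa, which is the study's. The markers summed to 36.4 to 44.1 CPM in control and 37.9 to 40 CPM in 4HC, and none of those tested was called. Of 11 markers of immune, endothelial, stromal, epithelial and germ cells, 10 were in the table and 4 stayed under 1 CPM in every sample. They summed to 19.3 to 22.8 CPM in control and 20.3 to 25.2 CPM in 4HC, again with none called, and ZP3 had the highest level.

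SLC52A1 was 12 times higher in 4HC than in control. FLAD1 fell by 0.19 and SLC25A32 by 0.29 on the log2 scale, SLC52A2 and RFK did not pass the test, and SLC52A3 had 1 count over all samples. In bulk RNA, fewer cells of a type and less RNA per cell cannot be told apart. Of the 4 members tested other than SLC52A1, 2 were called, both lower, where 36.4% of all genes tested were called and 17.1% as lower. FLAD1 and SLC25A32 were also the 2 whose groups did not overlap, which held for 45.3% of all genes tested. None of the 4 reached a 2-fold difference.

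**Figure D1:**
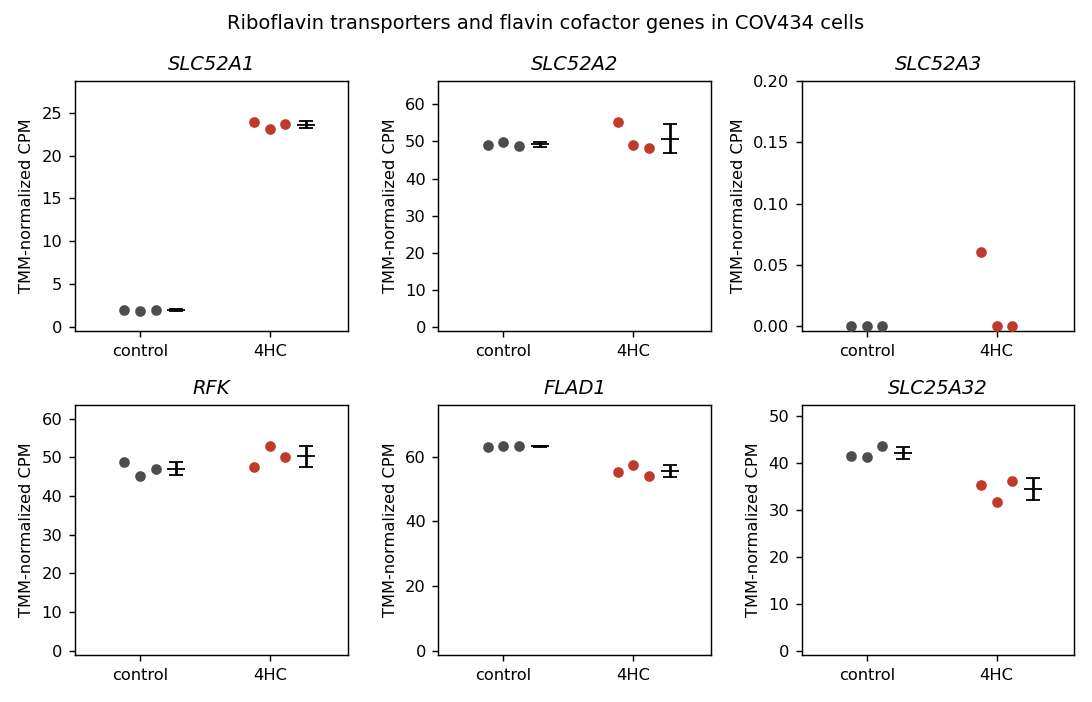
TMM-normalized CPM of the 6 genes in the 3 control and 3 4HC samples, on an axis that includes 0 in each panel. Points are samples, and the bars beside them are the mean ± SD, left out for SLC52A3, which had 1 count in all. SLC52A1 lies near 2 CPM in control and between 23.1 and 23.9 CPM in 4HC.

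SLC52A1 (NCBI Gene 55065, chr17:5032602-5035426, GRCh38) encodes riboflavin transporter 1. Its expected counts were 32, 30 and 34 in control and 396, 374 and 387 in 4HC. As CPM these were 1.97, 1.85 and 2.05 against 23.9, 23.1 and 23.7. The 3 samples of a group lay close together and the groups were far apart. The mean was 1.96 ± 0.103 CPM in control and 23.6 ± 0.435 CPM in 4HC (SD, n = 3 each), a log2 fold change of 3.58. This was rank 3 by log2 fold change among the 10375 tested genes that averaged 5 CPM or more in control or in 4HC. On log2 values with a pseudocount of 1 the difference was smaller, at 2.90 for TPM and 2.67 for FPKM. No coding gene in the table overlapped SLC52A1. The nearest was KIF1C, a kinesin motor gene 4200 bases away, named here after its values were seen, whose level was 307 CPM in control against 350 CPM in 4HC (log2 fold change 0.19).

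SLC52A2 (NCBI Gene 79581, 8q24.3) encodes riboflavin transporter 2, the closest paralog of SLC52A1. It measured 48.9, 49.9 and 48.7 CPM in control and 55.2, 49 and 48.1 CPM in 4HC. The groups overlapped, and only 4HC replicate 1 lay above the controls. The means were 49.2 ± 0.604 and 50.8 ± 3.87 CPM (SD, n = 3 each), and the log2 fold change was 0.05 (SE 0.0536, adjusted p = 0.522 by edgeR). The 95% interval of the difference ran from a fold of 0.959 to 1.11. Without 4HC replicate 1 the log2 fold change was −0.02, so the sign rests on that sample.

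SLC52A3 (NCBI Gene 113278, chr20:756801-775985) encodes riboflavin transporter 3. It had 0 counts in 5 samples and 1 count in 4HC replicate 1, which is 0.0604 CPM. A count of 0 allows up to 3 counts, or 0.18 to 0.186 CPM depending on the sample, so a level below that was not detectable at this depth. It did not pass the filter and was not tested.

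RFK (NCBI Gene 55312, chr9:76385526-76395964) encodes riboflavin kinase, the enzyme that makes FMN. It measured 48.8, 45.3 and 47.1 CPM in control and 47.5, 53 and 50.2 CPM in 4HC, and the groups overlapped. The means were 47.1 ± 1.76 and 50.2 ± 2.74 CPM (SD, n = 3 each). The log2 fold change was 0.09 (SE 0.0532, adjusted p = 0.173 by edgeR), with a 95% interval from −0.01 to 0.20.

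FLAD1 (NCBI Gene 80308, chr1:154983338-154993111) encodes FAD synthase, the enzyme that acts after RFK. It measured 62.9, 63.4 and 63.3 CPM in control and 55.2, 57.6 and 53.9 CPM in 4HC. Every 4HC sample lay below every control. The mean fell from 63.2 ± 0.258 to 55.5 ± 1.9 CPM (SD, n = 3 each), a log2 fold change of −0.19 (SE 0.0484, 95% interval −0.28 to −0.09, adjusted p = 0.00169 by edgeR). This is a fold of 0.878.

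SLC25A32 (NCBI Gene 81034, chr8:103398638-103415107), the mitochondrial carrier, measured 41.4, 41.3 and 43.6 CPM in control and 35.2, 31.7 and 36.1 CPM in 4HC. The groups were again apart, with the lowest value in 4HC replicate 2. The mean fell from 42.1 ± 1.32 to 34.3 ± 2.33 CPM (SD, n = 3 each), a log2 fold change of −0.29 (SE 0.0579, 95% interval −0.41 to −0.18, adjusted p = 5.03e-05 by edgeR), or a fold of 0.816. DCAF13, a ribosome biogenesis gene, lies 278 bases from SLC25A32 and was named after its values were seen. It averaged 115 CPM in control against 98.6 CPM in 4HC (log2 fold change −0.23). Other neighbours, also named after their values were seen, went the other way from the member. CTHRC1, 15648 bases from SLC25A32 on the other side, averaged 0.489 CPM in control against 1.18 CPM in 4HC (log2 fold change 1.26). CKS1B, 2186 bases from FLAD1, had a log2 fold change of 0.11.

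Levels between genes were compared with the deposited TPM, which is scaled to transcript length. In control FLAD1 was the highest member at 64.9 ± 0.473 TPM, followed by SLC52A2 at 47.4 ± 0.312, RFK at 31.9 ± 1.35, SLC25A32 at 25.3 ± 0.95 and SLC52A1 at 1.49 ± 0.11 TPM (SD, n = 3 each), and SLC52A3 was listed at 0. In 4HC the order was the same, with FLAD1 at 56.8 ± 1.52, SLC52A2 at 48.7 ± 3.99, RFK at 33.8 ± 1.61, SLC25A32 at 20.5 ± 1.49 and SLC52A1 at 17.6 ± 0.415 TPM. In neither group did the samples of neighbours in this order overlap. SLC52A1 passed from percentile 35 to percentile 63.2 of all genes by mean TPM, and remained below SLC25A32 and SLC52A2.

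SLC52A2 was the most abundant of the SLC52 genes in every sample. The summed TPM of the SLC52 genes was 48.8, 48.5 and 49.3 in control and 71.2, 64.2 and 63.4 in 4HC, so that the groups did not overlap. The mean sum went from 48.9 ± 0.381 to 66.3 ± 4.33 TPM (SD, n = 3 each), a difference of 17.4 TPM of which SLC52A1 made up 16.1 TPM. SLC52A1 took 3.18%, 2.8% and 3.14% of the summed transporter TPM in control and 25.2%, 26.7% and 27.8% in 4HC. The ratio of SLC52A2 to SLC52A1 in TPM was 32 ± 2.36 in control and 2.77 ± 0.181 in 4HC. These sums and ratios contain SLC52A1 and are descriptions.

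**Figure D2:**
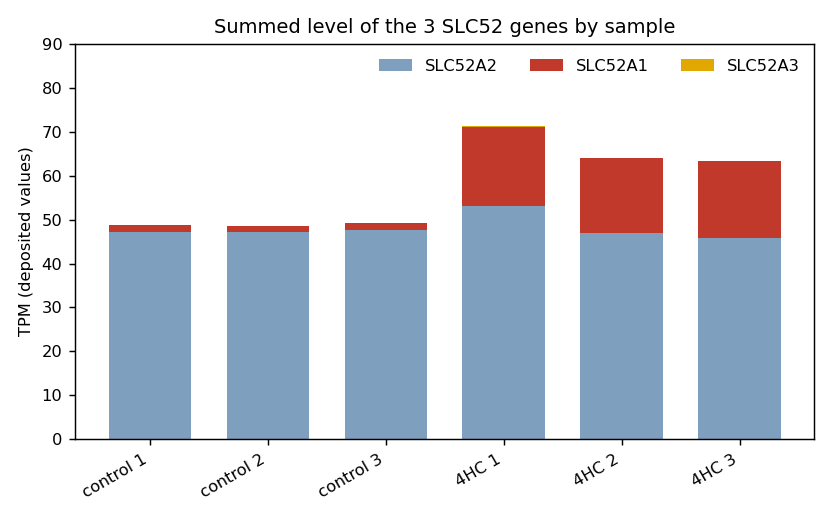
Deposited TPM of SLC52A2, SLC52A1 and SLC52A3 stacked for each of the 6 samples, on an axis from 0. The SLC52A2 segment is of like height throughout, and the SLC52A1 segment is 1.36 to 1.55 TPM in control and 17.1 to 18 TPM in 4HC.

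FLAD1 acts on the product of RFK, and the pair can be read as a ratio within each sample. The ratio of FLAD1 to RFK in TPM was 1.95, 2.12 and 2.04 in control and 1.76, 1.65 and 1.64 in 4HC. The mean was 2.04 ± 0.0831 in control and 1.68 ± 0.0675 in 4HC (SD, n = 3 each), and the groups did not overlap. The samples of the groups also did not overlap for 45.3% of all genes tested, and the ratio contains FLAD1, which was called lower. With 3 samples against 3, a two-sided exact permutation test cannot go below p = 0.1. That test could not reach 0.05 here, and no other test was run on the ratio, so the ratio is a description.

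The transcript counts were read for the same genes. The members had 24 transcript rows, of which 6 were second copies of SLC52A2 transcripts with identical values, leaving 18 distinct transcripts. RSEM divides reads among transcripts that share sequence, so these values are less certain than those of genes. Of the 21 rows outside SLC52A1, 15 were tested, of which 4 were second copies, leaving 11 distinct transcripts. By edgeR 0 of them were called, 2 had an unadjusted p below 0.05, and 1 was called by DESeq2. Among all 42216 transcripts tested, 1.29% were called by edgeR. In simulated data with known changes, the transcript fit recovered 1.9% of log2 changes of 0.5 and 18.9% of those of 1.5. The gene fit recovered 92% and 100%. The simulation changed fewer features than were called in these data, only well-counted ones, and no change smaller than 0.5. Its rates may therefore differ from those in these data. A transcript that was not called may still have changed.

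SLC52A1 was counted as 3 transcripts. NM_017986 had 17.6, 18.6 and 34 expected counts in control and 271, 220 and 226 in 4HC. NM_001104577 had 5.44, 11.4 and 0 in control and 111, 133 and 154 in 4HC. Both were higher in every 4HC sample than in any control. The predicted transcript XM_011523951 had 8.98, 0 and 0 in control and 14.7, 21.1 and 7.21 in 4HC, and its groups overlapped. NM_017986 and NM_001104577 each have 5 exons and an identical coding sequence of 1347 bases, and they differ in length (2375 and 2412 bases) and in the first base (5035426 and 5035432 on chromosome 17). NM_017986 took 54.9%, 61.9% and 100% of the gene's counts in control and 68.3%, 58.8% and 58.4% in 4HC, and NM_001104577 took 17%, 38.1% and 0% against 28%, 35.6% and 39.7%. The control shares rest on 30 to 34 counts per sample, and the 4HC shares of NM_017986 lay within their range.

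The counts of SLC52A2 were spread over 8 distinct transcripts, with both copies of a transcript added. NM_001363118 led with 42.5% of them in control and 40.6% in 4HC, followed by NM_001253816 with 26.7% and 22.8% and by XM_017013821 with 21.2% and 22.6%. NM_201398 of FLAD1 held 69.2% of the gene's counts in control and 72% in 4HC, with 716 ± 23.6 against 655 ± 21.6 expected counts (SD, n = 3 each). Its log2 fold change was −0.13 with an unadjusted p of 0.0471 and an adjusted p of 0.441 by edgeR. NM_030780, the only transcript of SLC25A32, had a log2 fold change of −0.29 and an adjusted p of 0.133 by edgeR over all transcripts, and an adjusted p of 0.00361 by DESeq2. RFK was counted as NM_018339 alone, and SLC52A3 as NM_033409 alone.

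The pathway around the members was described by 7 lists of genes, each set beside the median log2 fold change of all genes tested, which was 0.00, and the 36.4% of genes called. Of 7 genes listed for the turnover or reduction of riboflavin, FMN and FAD, 4 were tested, and the reductase BLVRB alone was called. ACP1, ACP2 and ENPP1, the tested genes for turnover, were not called (log2 fold changes −0.05, 0.04 and −0.11). BLVRB, a flavin and biliverdin reductase, rose from 42.3 ± 0.502 to 68.1 ± 3.02 CPM (log2 fold change 0.69, adjusted p = 2.12e-16 by edgeR). The list's median was 0.00.

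Flavoproteins, which use the FMN and FAD that the members supply, moved in both directions. Of 99 flavoprotein genes in 4 lists, 91 were in the table and 73 were tested, and 15 were called higher and 16 lower. That is 42.5% called, with a median log2 fold change of 0.01. FDXR, the reductase that passes electrons to mitochondrial ferredoxin, was the only one past 2-fold. It measured 84.4, 89.7 and 86.5 CPM in control and 225, 222 and 203 CPM in 4HC, a log2 fold change of 1.32 (SE 0.0411, adjusted p = 7.24e-32 by edgeR).

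The list named for fatty acid oxidation also holds dehydrogenases of amino acid breakdown, among them GCDH, ACADSB and IVD, which were called lower. Of its 15 tested flavoproteins, 3 were called higher and 4 lower, with a median of 0.00, so the calls lower are not all of fatty acid oxidation. GCDH, the glutaryl-CoA dehydrogenase of lysine breakdown, fell by 0.25 on the log2 scale and ACADSB, a short branched-chain acyl-CoA dehydrogenase, fell by 0.17. ACADS, the short-chain enzyme, rose by 0.30, but its call was lost without control replicate 1, 4HC replicate 1 or 4HC replicate 2 and held in 9 of 15 alternatives, with adjusted p-values up to 0.155. ACAD10 rose by 0.16, and its call held in 4 of 15 alternatives, being lost on leaving out any sample but 4HC replicate 3 (adjusted p up to 0.166). The list's count was 4 without control replicate 1, without control replicate 3 or without 4HC replicate 2. The split was not steady: 0 were called higher with DESeq2 or without control replicate 1, 1 was called higher on TPM or without control replicate 3, 4HC replicate 1 or 4HC replicate 2, and 1 was called lower on FPKM.

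Among mitochondrial respiratory and dehydrogenase flavoproteins, 4 of 15 tested were called higher and 3 lower, with a median of 0.05. SDHA, the flavin subunit of succinate dehydrogenase, rose from 178 ± 3.37 to 227 ± 4.82 CPM (log2 fold change 0.35). DHODH, which makes orotate for pyrimidines, fell by 0.23, as did the glycerol-3-phosphate dehydrogenase GPD2, whose call held in 4 of 15 alternatives and was also lost on leaving out any sample but 4HC replicate 3 (adjusted p up to 0.15).

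Among cytosolic and ER redox flavoproteins, 4 of 25 tested were called higher and 5 lower, with a median of 0.01, and 5 were called in all without control replicate 3, 2 of them higher. The calls lower were 3 with DESeq2, on TPM or FPKM, without 4HC replicate 1 or without control replicate 3. The quinone reductases NQO1 and NQO2 rose by 0.46 and 0.24 on the log2 scale, and the squalene epoxidase SQLE fell from 99.9 ± 1.55 to 76.2 ± 3.1 CPM (log2 fold change −0.39). ERO1B, an ER oxidase, rose by 0.35, a call that held in 9 of 15 alternatives and was lost without 4HC replicate 1, 4HC replicate 2 or control replicate 3 (adjusted p up to 0.222). Of 18 tested amine, purine, chromatin and other flavoproteins, 4 were called higher and 4 lower, with a median of 0.02, and 2 were called lower without control replicate 3 or on FPKM. RETSAT, a retinol saturase, rose by 0.54, PPCDC of coenzyme A synthesis by 0.44 and PCYOX1L by 0.26, whereas DUS4L, a tRNA dihydrouridine synthase, fell by 0.47.

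**Figure D3:**
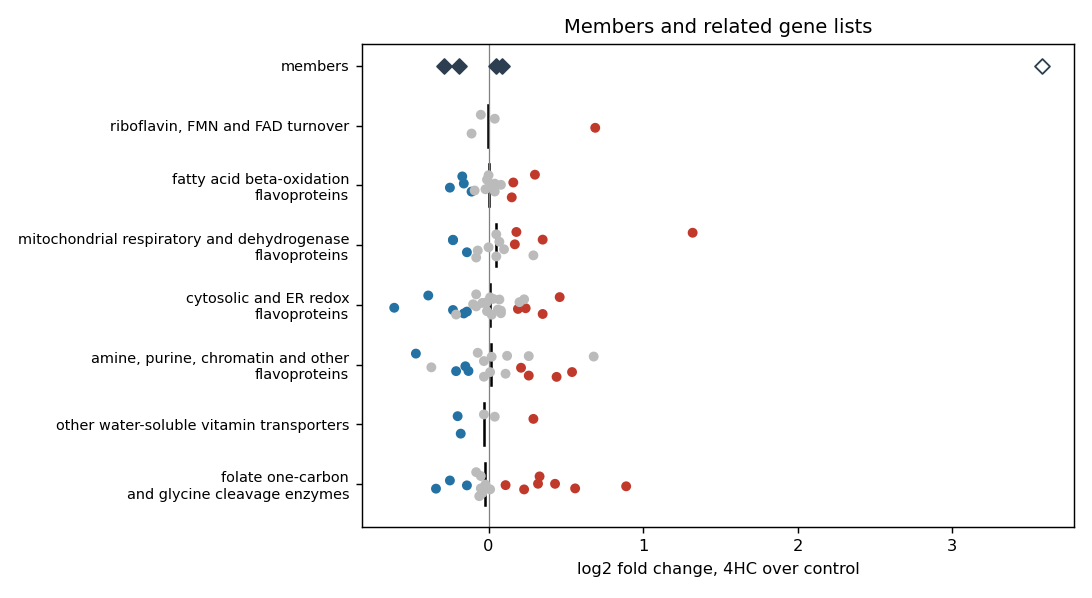
Log2 fold change, 4HC over control, of the 5 members with a fitted value (diamonds, with SLC52A1 open because no test was made) and of the tested genes of 7 lists (points). Red points were called higher, blue lower and grey not called at an adjusted p of 0.05 by edgeR, black ticks are list medians, and vertical scatter within a list carries no value. The list medians lie between −0.03 and 0.05, and SLC52A1 lies at 3.58.

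Carriers of other water-soluble vitamins gave a comparison for the transporters. Of 12 listed, 9 were in the table and 5 were tested, with a median of −0.03, and 2 were called lower. The reduced folate carrier SLC19A1 and the biotin and pantothenate carrier SLC5A6 fell by 0.20 and 0.18 on the log2 scale. The folate enzymes are set beside SLC25A32 because it is also known as a folate carrier. Of 17 folate one-carbon and glycine cleavage genes tested, 7 were called higher and 3 lower, with a median of −0.02. TYMS, the thymidylate synthase, rose from 228 ± 2.25 to 337 ± 0.962 CPM (log2 fold change 0.56), SHMT1 rose by 0.33 and MTHFD2L fell by 0.34. AMT of glycine cleavage rose by 0.43, a call that held in 12 of 15 alternatives and was lost without 4HC replicate 2 or control replicate 3 (adjusted p up to 0.0843).

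The 5 genes whose pattern over the 6 samples was most like that of SLC52A1 were found by the root mean square distance between log2 CPM profiles, each centred on its own mean, among 10375 genes. The points share their libraries, and with 2 groups of 3 the measure mostly compares the size of the difference between the groups. PLXNB3, a semaphorin receptor, was nearest at a distance of 0.511, at 4.69 CPM in control against 27.7 CPM in 4HC. HES2, a basic helix-loop-helix repressor, followed at 0.575, with 1.85 and 10.5 CPM. DRAXIN, a secreted axon guidance protein, stood at 0.606, with 0.307 and 7.51 CPM. GDF15, a secreted member of the TGF-β family, stood at 0.735, with 6.71 and 29.2 CPM, and PDE4C, a cAMP phosphodiesterase, at 0.847, with 2.45 and 9.14 CPM.

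Promoter sequences of RefSeq on GRCh38.p14, the 250 bases before a gene's start, were matched for 2 of the 6 members, FLAD1 and RFK. On both strands, the FLAD1 window held 2 GC boxes (GGGCGG), 1 E-box (CACGTG) and 1 CCAAT box, and the RFK window held 4 GC boxes and 0 of the others. The p53 half-site was found in neither. Of 35116 promoters of the same length, 42.6% held the GC box, 6.34% the E-box, 32% the CCAAT box and 5.57% the p53 half-site. The RFK window lies inside the range that the files give for that gene, and a match of letters is not a bound site.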

How the data were processed

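Total RNA of 6 COV434 samples was sequenced. Per the labels and the submitters' processing notes, reads were filtered with SOAPnuke and handled on the Dr. Tom system, with HISAT2, Bowtie2, RSEM 1.3.1, DESeq2 1.4.5 and GRCh38.p13 named without roles. The authors deposited expected counts for 16798 genes and 79213 transcripts, not normalized (85.5% of gene values exactly whole as deposited, with no tolerance). They also deposited TPM, which the authors scaled to transcript length, and FPKM, which the authors scaled to length and library size. The deposited columns of fold changes, p-values and group averages were not used.

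For the test, each expected count was rounded and fitted in edgeR 4.0.16 (R 4.3.3) by TMM scaling, filterByExpr and quasi-likelihood, comparing 4HC with control and no covariate. Transcripts were fitted in the same way over the whole table. Totals of 16133786 to 16702316 counts limit precision below about 0.18 CPM, the level of 3 counts, which covers counting error only. No pair of samples in a group agreed within sampling noise (chi-square per gene 1.7 to 2.46). The scripts were tested on simulated data.

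Other settings were DESeq2 1.42.0, its size factors inside edgeR, scaling by library size alone, no filter, a minimum of 10 counts, the replicate number as a block, limma 3.58.1 on log2 TPM (pseudocount 1 or 0.1) or log2 FPKM (pseudocount 1), and leaving out each sample. The members and lists were chosen with earlier results of these data known. From each list, up to 4 called genes of at least 5 CPM were named in order of log2 fold change, and the 5 genes nearest to SLC52A1 by centred log2 CPM (offset 0.05). One gene that this rule took is not reported here. Sequences came from GENCODE 29 and RefSeq. Python 3.11.15, pandas 2.3.3, Biopython 1.88 and matplotlib 3.10.9 were used.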

Additional observations from a re-analysis of the deposited data

How the results depend on the processing

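FLAD1 and SLC25A32 were called lower in all 15 alternatives, with log2 fold changes of −0.22 to −0.16 (adjusted p 0.00112 to 0.0114) and −0.33 to −0.24 (adjusted p 9.74e-06 to 0.00662), and RFK (0.05 to 0.13, adjusted p 0.0852 to 0.56) and SLC52A2 (adjusted p 0.263 to 0.805) were called in none. SLC52A2 ranged from −0.02, without 4HC replicate 1, to 0.09 when single samples were left out. The log2 fold change of SLC52A1 was 2.90 on TPM with a pseudocount of 1, 3.48 with a pseudocount of 0.1 and 2.67 on FPKM with a pseudocount of 1, and a pseudocount by construction shrinks the difference of a gene that is low in one group. With limma on FPKM 1343 genes were called lower, against 2118, and over all alternatives 3340 to 4533 genes were called in all. The fatty acid oxidation list had 4 calls with DESeq2 and 4 on FPKM, and 4 to 7 when single samples were left out, and the cytosolic and ER redox list had 5 to 11. DESeq2 called 1 transcript of the members, NM_030780, where edgeR called 0. Without single samples the log2 fold change of the SLC52A2 transcript NM_001363118 ran from −0.11 to 0.06 and that of NM_001363121 from −0.05 to 1.06. Apart from those made by construction, the causes were not tested. Same-numbered samples of the groups deviated with correlations of −0.047, 0.00159 and 0.13, and not every sample correlated best with its own number. The labels do not describe a pairing. Correlations from 3 samples a group cannot show whether same-numbered samples share a culture or batch. With the replicate block 4213 genes were called, and the members had 2 calls, as without it. Depth limits SLC52A3 and the transcripts of SLC52A1 in control.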
